A study of Homo sapiens with 6 samples.

Results

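The genes described here are the activin subunits INHBA, INHBB and INHBE, the divergent family member GDF15, the activin-binding antagonists FST and FSTL3, and the activin receptors ACVR1, ACVR1B, ACVR2A and ACVR2B. They were taken by gene name, and they are 10 of the 33900 genes in the table. INHBE was chosen because its level with rhSema3C was far above that with PBS, so its values are given as a description and without a test. The other 9 genes were added because they belong to the same family of ligands, antagonists and receptors. The cells were LX-2, an established wild-type line of human hepatic stellate cells. One group of 3 samples received rhSema3C (recombinant human Sema3C, a secreted guidance protein) at 300 ng/ml for 48 h, and the control group of 3 samples received PBS for the same time. The labels call the samples biological replicates without saying whether they came from separate cultures, and the p-values measure the spread between these samples.

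Activins are dimers of beta subunits of the TGF-β superfamily. An activin first binds a type II receptor (ACVR2A or ACVR2B), which then phosphorylates a type I receptor such as ACVR1B, and the type I receptor phosphorylates SMAD2 and SMAD3. Follistatin (FST) and follistatin-like 3 (FSTL3) wrap around the activin dimer and keep it from its receptors. In the liver, activin A, the dimer of INHBA products, is known to act on stellate cells, while INHBE is made mainly by hepatocytes, and GDF15 is a stress-induced hormone that signals to the brain through GFRAL and RET.

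The sequencing was deep for all 6 samples, with between 68267808 and 89245585 counts on genes. In the markers of stellate cells, 6 of 9 had a mean of at least 1 FPKM (a read count scaled to gene length and library size). The summed level was between 1380 and 1438 FPKM with PBS and between 1092 and 1153 with rhSema3C. Most of it was VIM, with means of 1035.5 and 834.5 FPKM. At an adjusted p below 0.05 in edgeR, 5 of the 6 markers tested were lower with rhSema3C, as were 30.6% of all genes tested. Log2 fold changes were -0.78 for COL1A1, -0.56 for ACTA2 and 0.09 for PDGFRB, which did not pass. COL1A2, DES and LRAT, which also mark these cells, were at or near 0, with means of 0.130 and 0.00721 FPKM for COL1A2 and DES and 0 counts of LRAT in the PBS samples. The defining hepatocyte markers ALB, APOA1 and FGB had 0 counts in every rhSema3C sample and at most 9 in a PBS sample. SERPINA1, which hepatocytes also make, accounted for most of the summed hepatocyte marker level, which was 2.62 to 3.16 FPKM with PBS and 3.52 to 4.14 with rhSema3C. The summed endothelial markers were 0.151 to 0.178 FPKM with PBS and 0.589 to 0.843 with rhSema3C, a difference carried by VWF (means of 0.101 and 0.659 FPKM), while PECAM1 was at 0.0583 and 0.0594 and CDH5 near 0. The summed macrophage markers, nearly all of it CD68, were 90.3 to 98.0 and 63.6 to 69.8 FPKM. Mitochondrial genes took 4.75% to 5.42% of the counts with PBS and 3.73% to 3.93% with rhSema3C. The part of these differences in the results for the 10 genes was not tested.

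Promoter windows from RefSeq (GRCh38.p14), from 250 bases before to 50 bases after a transcription start, matched 9 of the 10 genes by symbol, in 12 windows. INHBE was the gene with no window. The windows of GDF15, INHBA and FSTL3 are shown because they are those of the largest rise and the largest fall among the members with a window, and of the most abundant beta subunit, and because they share the letters TATAAA, a common core promoter sequence. The capitals mark TATAAA, or TTTATA where it lies on the other strand. It began 29 bases before the start in GDF15 and in FSTL3, and 11 bases before it in INHBA.
GDF15, chr19:18385908-18386207, plus strand: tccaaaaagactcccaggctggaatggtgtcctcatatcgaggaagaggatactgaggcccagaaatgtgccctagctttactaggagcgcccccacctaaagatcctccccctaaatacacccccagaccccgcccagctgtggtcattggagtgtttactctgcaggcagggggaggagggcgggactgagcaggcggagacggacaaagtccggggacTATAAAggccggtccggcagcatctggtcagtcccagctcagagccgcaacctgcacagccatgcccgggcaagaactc
INHBA, chr7:41703041-41703340, minus strand: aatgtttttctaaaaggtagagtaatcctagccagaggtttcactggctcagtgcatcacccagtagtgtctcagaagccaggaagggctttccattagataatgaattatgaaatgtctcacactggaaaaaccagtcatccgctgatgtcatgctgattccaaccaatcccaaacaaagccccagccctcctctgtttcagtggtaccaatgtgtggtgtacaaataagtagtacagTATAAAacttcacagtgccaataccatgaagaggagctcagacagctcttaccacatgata
FSTL3, chr19:676142-676441, plus strand: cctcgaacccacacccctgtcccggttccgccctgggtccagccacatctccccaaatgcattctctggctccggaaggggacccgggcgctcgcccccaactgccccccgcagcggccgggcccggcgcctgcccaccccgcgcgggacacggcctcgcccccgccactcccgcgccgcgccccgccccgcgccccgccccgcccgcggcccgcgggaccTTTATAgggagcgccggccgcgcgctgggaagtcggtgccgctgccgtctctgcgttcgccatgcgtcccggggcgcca
On either strand, TATAAA was in 11.5% of all 35116 promoter windows of this length, and it was searched for after these windows had been read. TGATGNAA, the core of the C/EBP-ATF response element, was in 3.62% of all windows and in 0 of the 12 member windows. CAGACA, which holds a SMAD-binding element, was in 16.9% of all windows and in 4 of the 12, with 1 in INHBA, 2 in ACVR1 and 1 in ACVR1B. No match overlapped another. A match describes letters and is not evidence of a binding site.

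Among the beta subunits, INHBE was nearly 8-fold higher with rhSema3C, INHBB was lower and INHBA stood close to the test's threshold. INHBE (ENSG00000139269) lies on chromosome 12 of GRCh38 from 57452323 to 57459280. Its levels were 0.596, 0.761 and 0.760 CPM (counts scaled to the TMM-adjusted library size, with no regard to gene length) in PBS replicates 1, 2 and 3, and 5.59, 5.27 and 5.79 CPM in rhSema3C replicates 1, 2 and 3. Every rhSema3C sample lay far above every PBS sample. The counts behind these values were 51, 53 and 50 with PBS and 482 in each of the 3 rhSema3C samples, whose library totals differed. The log2 fold change was 2.98 (standard error, SE, 0.19), a 7.88-fold difference, and it was the 9th largest rise of the 14178 genes tested. In bulk RNA, more cells with the transcript and more transcript per cell cannot be told apart.

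INHBE passed the filter on low genes, a mean of 0.5 FPKM over the 6 samples, only through its rhSema3C samples. Its span overlaps that of AC022506, a gene on the other strand known by a clone name, by 1685 bases. AC022506 had 0.373 to 0.654 CPM with PBS and 0.660 to 0.951 CPM with rhSema3C, so its groups also did not overlap. Its levels with rhSema3C were well below those of INHBE, but with PBS its range reached into that of INHBE (0.596 to 0.761 CPM). Whether the counting used strand is not given in the sources used here, and without strand the reads of the 2 genes cannot be separated. INHBC, the closest relative of INHBE and its neighbour on the same strand, ends 260 bases before INHBE begins. It had 36, 14 and 16 counts with PBS and 6, 14 and 10 with rhSema3C.

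INHBA (ENSG00000122641), which encodes the subunit of activin A, lies on chromosome 7 from 41667168 to 41705335 on the minus strand. It had 44.5, 40.2 and 48.5 CPM with PBS and 50.7, 48.8 and 49.9 CPM with rhSema3C. The groups did not overlap, but the nearest samples were almost level, and the PBS samples were the more scattered. On the log2 scale INHBA differed by 0.17 (SE 0.07), and it did not pass the threshold (adjusted p = 0.057 by the quasi-likelihood test of edgeR, and 0.0023 to 0.20 over the alternatives). With PBS replicate 3 left out it was 0.23 (adjusted p = 0.015 in edgeR), and limma on log2(TPM + 1) gave 0.38.

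INHBB (ENSG00000163083), the subunit of activin B, lies on chromosome 2 from 120346136 to 120351803. Its levels were 5.89, 5.88 and 6.58 CPM with PBS and 5.19, 3.82 and 4.35 CPM with rhSema3C. All rhSema3C samples were below all PBS samples, with rhSema3C replicate 1 the closest to them. INHBB fell by 0.46 on the log2 scale (SE 0.15, adjusted p = 0.019 in edgeR, and 0.0068 to 0.15 over the alternatives). The call was lost without PBS replicate 3 (-0.40, adjusted p = 0.067 in edgeR), without rhSema3C replicate 2 (-0.36, 0.076) and without rhSema3C replicate 3 (-0.44, 0.055), and with library size alone as the scaling (-0.35, 0.060).

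Compared per length, the make-up of the beta subunit mRNA shifted. INHBA was the main subunit in all 6 samples, with 69.97% to 72.5% of the summed FPKM of the 3 subunits with PBS and 64.0% to 66.9% with rhSema3C. INHBE took 2.64%, 3.57% and 3.03% of the sum in the PBS samples and 19.1%, 19.6% and 20.5% in the rhSema3C samples. INHBB made up 24.8% to 26.5% with PBS and 13.5% to 16.9% with rhSema3C. INHBE therefore changed place with INHBB, from the least to the second most abundant of the 3. These shares are sums over genes chosen with results known, so no test is given for them.

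**Figure D1:**
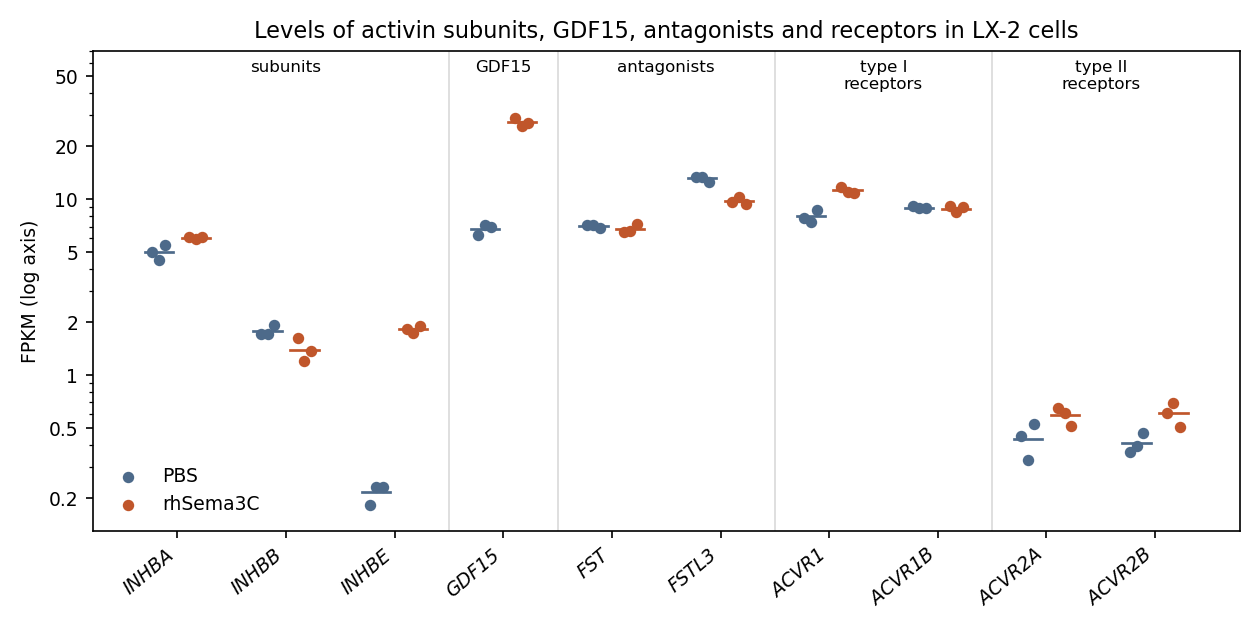
FPKM (log axis) of the 10 genes in each of the 3 PBS and 3 rhSema3C samples, with a point for each sample and a line for each group mean. INHBE moved from a mean of 0.216 to 1.83 FPKM and GDF15 from 6.78 to 27.4 FPKM, while the other 8 genes stayed within a much narrower range.

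GDF15 had the second largest rise of the 10 genes and became the most abundant of them. GDF15 (ENSG00000130513) is found on chromosome 19 from 18374731 to 18389176. The PBS samples had 13.9, 16.0 and 15.4 CPM, and the rhSema3C samples had 60.1, 54.3 and 56.2 CPM. The groups were far apart, and each was tight. GDF15 rose by 1.91 on the log2 scale (SE 0.08), or 3.76-fold (adjusted p = 7.7e-09 in edgeR). Across all alternatives the log2 fold change stayed between 1.85 and 2.10. It was the 54th largest rise of the 14178 genes tested. The microRNA gene MIR3189 lies within GDF15 on the same strand, with at most 7 counts in a sample. Of its receptor pair, RET was below the filter (0.275 and 0.191 FPKM as group means) and GFRAL was not analysed here.

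Of the antagonists, FSTL3 fell and FST did not pass the threshold. FSTL3 (ENSG00000070404, chromosome 19 from 676392 to 683392) encodes the smaller of the follistatin-type proteins. It had 43.5, 43.8 and 40.6 CPM in the PBS samples and 29.2, 31.2 and 28.3 CPM in the rhSema3C samples. The groups were well separated, with a gap larger than the spread in either. FSTL3 fell by 0.53 on the log2 scale (SE 0.07, adjusted p = 3.4e-05 in edgeR), and the call held in all 15 alternatives, with log2 fold changes of -0.57 to -0.29.

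FST (ENSG00000134363, chromosome 5 from 53480626 to 53487134) encodes follistatin itself. Its CPM were 21.0, 21.2 and 20.2 with PBS and 17.96, 18.05 and 19.8 with rhSema3C. The groups did not overlap on this scale, but in FPKM, which is not TMM-scaled, rhSema3C replicate 3 (7.26) was above every PBS sample (6.91 to 7.17). The difference was -0.16 on the log2 scale (SE 0.08, adjusted p = 0.098 in edgeR), and with values rescaled to TPM it was 0.06, so neither a change nor its direction was established. As a result the ratio of FSTL3 to FST in FPKM was 1.82 to 1.88 with PBS and 1.30 to 1.57 with rhSema3C.

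Set against the antagonists, the ligand mRNA was higher with rhSema3C. The ratio of INHBA to the sum of FST and FSTL3 in FPKM was 0.245, 0.220 and 0.282 in the PBS samples and 0.380, 0.35 and 0.365 in the rhSema3C samples. The groups did not overlap. With INHBA, INHBB and INHBE summed, the ratio was 0.348 ± 0.041 with PBS and 0.559 ± 0.035 with rhSema3C (SD, n = 3 per group), 1.61 times as high. The sum holds INHBE, which was chosen for its rise. As group means, INHBE went from 0.216 to 1.83 FPKM, INHBA from 5.03 to 6.06 and INHBB from 1.79 to 1.40. These ratios compare mRNA, not protein, and no test is given for a score over chosen genes.

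**Figure D2:**
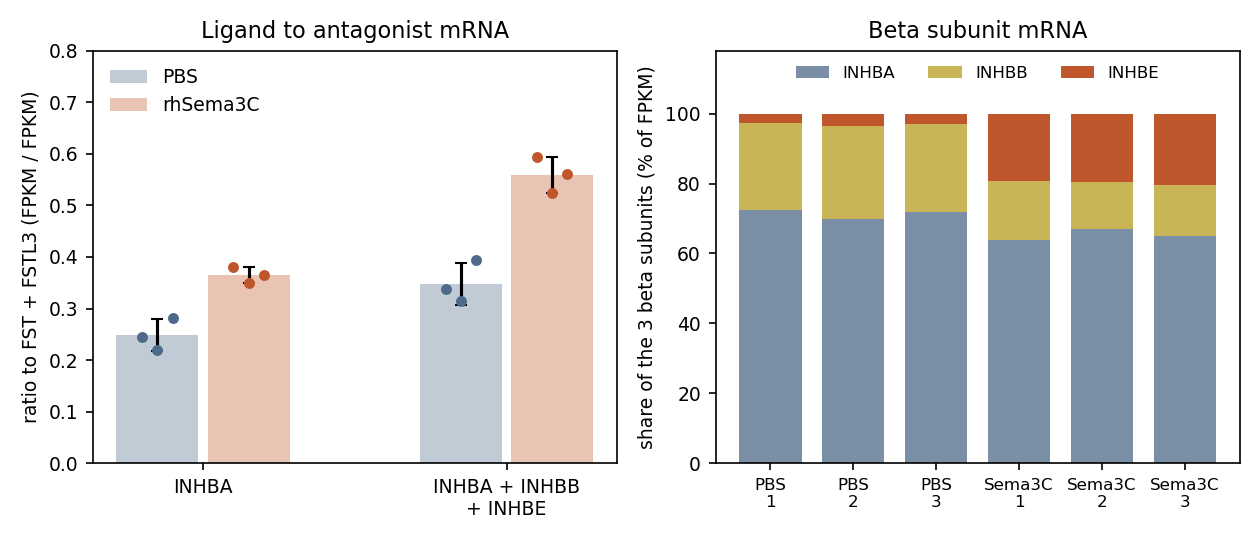
Left, ratio of beta subunit FPKM to the summed FPKM of FST and FSTL3, with a point for each sample, bars for group means and error bars for the SD (n = 3). Right, share of INHBA, INHBB and INHBE in their summed FPKM in each sample, in which INHBE goes from 2.64% to 3.57% with PBS to 19.1% to 20.5% with rhSema3C.

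Among the receptors, ACVR1 was higher by less than 1.5-fold, and ACVR1B and ACVR2A did not pass the threshold. ACVR2B was also higher by less than 1.5-fold, but it passed the filter through the rhSema3C group only. Its call was lost in 4 alternatives. ACVR1 (ENSG00000115170, chromosome 2 from 157736444 to 157876330, minus strand), a type I receptor best known for BMP signals, had 37.6, 35.8 and 41.4 CPM with PBS and 52.7, 48.9 and 48.4 CPM with rhSema3C. The groups were apart by more than the spread in either. ACVR1 rose by 0.39 on the log2 scale (SE 0.07, adjusted p = 0.00048 in edgeR), and the call held in all 15 alternatives. ACVR1B (ENSG00000135503, chromosome 12 from 51951699 to 51997078), the main type I receptor for activins, had 55.0, 54.0 and 53.5 CPM with PBS and 51.4, 47.7 and 50.4 CPM with rhSema3C. These groups lay close together without overlapping. For ACVR1B the difference was -0.12 on the log2 scale (SE 0.05, adjusted p = 0.066 in edgeR, and 0.042 to 0.87 over the alternatives), and it was 0.10 with values rescaled to TPM.

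Both type II receptors were scarce. ACVR2A (ENSG00000121989, chromosome 2 from 147844517 to 147930826) had 3.10, 2.31 and 3.63 CPM with PBS and 4.19, 3.95 and 3.30 CPM with rhSema3C, and the groups overlapped. On the log2 scale the difference was 0.34 (SE 0.20, adjusted p = 0.16 in edgeR). ACVR2A shares 430 exonic bases with ORC4 on the other strand, which rose by 0.34 (SE 0.10, adjusted p = 0.013 in edgeR). The other genes whose spans overlap a member, INHBA-AS1, RNU6-574P and ACVR2B-AS1, share 0 exonic bases with it. ACVR2B (ENSG00000114739, chromosome 3 from 38453890 to 38493142) had 6.14, 6.72 and 7.85 CPM with PBS and 9.61, 10.8 and 7.94 CPM with rhSema3C. The groups did not overlap, but PBS replicate 3 and rhSema3C replicate 3 were nearly equal. ACVR2B was higher by 0.46 on the log2 scale (SE 0.14, adjusted p = 0.017 in edgeR, and 0.0050 to 0.078 over the alternatives). In the fit with no filter it was at 0.45 (adjusted p = 0.048 in edgeR). Without PBS replicate 1 the value was 0.38 (adjusted p = 0.062 in edgeR), and without rhSema3C replicate 2 it was 0.35 (0.072). Like INHBE, both genes passed the filter through the rhSema3C group only, with means over all samples of 0.514 FPKM for ACVR2A and 0.509 for ACVR2B, just above the minimum, so the call of ACVR2B is not counted among those of the members.

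Per length, the order of the 10 genes in PBS samples was FSTL3 (mean 13.2 FPKM), ACVR1B (8.97), ACVR1 (8.01), FST (7.08), GDF15 (6.78), INHBA (5.03), INHBB (1.79), ACVR2A (0.436), ACVR2B (0.411) and INHBE (0.216). Neighbours in this order had separate ranges over the samples, except FST with GDF15 and ACVR2A with ACVR2B. With rhSema3C the order was GDF15 (27.4 FPKM), ACVR1 (11.2), FSTL3 (9.81), ACVR1B (8.87), FST (6.80), INHBA (6.06), INHBE (1.83), INHBB (1.40), ACVR2B (0.606) and ACVR2A (0.592). Only ACVR2B and ACVR2A overlapped there. FPKM rests on the length given to a gene, which by the ratio of counts to FPKM was 16.1 kb for ACVR2B and 6.64 kb for ACVR2A, and this sets ACVR2B level with ACVR2A although its counts were higher. Both type II receptors stood far below ACVR1B in either group.

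At an adjusted p below 0.05, 2 of the 7 members that reached the minimum in both groups were higher (GDF15 and ACVR1) and 2 were lower (INHBB and FSTL3), in a fit that called 31.7% of all genes tested higher and 30.6% lower, or 62.3% in either direction. Of these 7, GDF15 was also past a 2-fold difference with p below 0.05 before adjustment (3.42% of all genes were past it higher, 2.12% lower and 5.54% in either direction). The groups did not overlap in 9 of the 10 members and in 67.8% of all genes (34.6% higher and 33.3% lower). Since INHBE was chosen on this contrast, nothing is read from these counts. The median log2 fold change was 0.25 over the 10 members, 0.17 without INHBE and 0.02 over all 14178 genes. That of all genes moved to 0.13 with library size alone as the scaling and to 0.23 with values rescaled to TPM, under which 74.1% of the calls were rises against 50.9% here.

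The rest of the activin and BMP pathway was followed with 50 further genes in 6 roles, of which 47 were matched in the table and 29 were tested. At an adjusted p below 0.05, 10 were higher and 13 lower, with a median log2 fold change of -0.10. Of these 29, 23 were called (62.3% of all genes were). The 13 lower, the 23 called and the median include PMEPA1. It reached the FPKM minimum in its PBS samples only (means of 0.842 and 0.245 FPKM), so nothing is read from these counts. Among the other ligands, GDF11, a close relative of myostatin that uses the same type II receptors, fell from 104.1 to 59.4 CPM as group means (log2 fold change -0.81, SE 0.04, adjusted p = 5.7e-08 in edgeR). BMP4 had 10.4 and 9.85 CPM and did not pass. MSTN, INHA, NODAL, BMP2, BMP6 and BMP7 were below the filter.

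GREM1 and FSTL1, secreted proteins far more abundant than FST and FSTL3, also fell. GREM1, which traps BMPs, went from 101.6 to 78.9 FPKM (log2 fold change -0.47, SE 0.04, adjusted p = 1.5e-06 in edgeR), and the follistatin-related FSTL1 from 53.0 to 43.5 FPKM (-0.39, SE 0.04). TGFBR3, or betaglycan, the co-receptor through which inhibins oppose activins, rose by 0.41 on the log2 scale (SE 0.11, adjusted p = 0.0074 in edgeR). The decoy receptor BAMBI was at -0.27 (SE 0.12) and did not pass.

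Among the other receptors, the endothelial-type co-receptor ENG fell from 155.6 to 84.9 CPM (log2 fold change -0.87, SE 0.05) and the BMP type I receptor BMPR1A rose by 0.31 (SE 0.07). BMPR2 was at 0.03 (SE 0.07), and its sign turned without PBS replicate 2 and without rhSema3C replicate 3. ACVR1C, a type I receptor known as a receptor for the INHBE product, had 20, 28 and 16 counts with PBS and 50, 58 and 62 with rhSema3C. It was below the filter, at 0.0300 and 0.0720 FPKM as group means, and in the fit with no filter the difference was 1.14 on the log2 scale (SE 0.39, adjusted p = 0.061 in edgeR).

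The SMADs divided. SMAD2 and SMAD3 carry the activin signal together, and they moved in opposite directions: SMAD2 rose from 81.1 to 128.4 CPM (log2 fold change 0.66, SE 0.04, adjusted p = 3e-07 in edgeR) and SMAD3 fell from 186.5 to 118.4 CPM (-0.66, SE 0.04, adjusted p = 3e-07 in edgeR). The shared partner SMAD4 rose by 0.51, and the BMP-side SMAD1 and SMAD5 rose by 0.66 and 0.42. The inhibitory SMAD7 had 16.4 and 16.7 CPM and did not pass, and the inhibitory SMAD6, below the filter, was at -0.72 (SE 0.17) in the fit with no filter. It was the only one of the 18 genes below the filter that passed there (adjusted p = 0.013 in edgeR).

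Among SMAD regulators and targets, PMEPA1, a TGF-β and activin target that holds back SMAD2 and SMAD3, went from 5.17 to 1.40 CPM. It passed the filter through its PBS samples only, so the fit with no filter is given for it (log2 fold change -1.89, SE 0.17, adjusted p = 3.7e-05 in edgeR). TGIF1, a repressor of SMAD-driven transcription, rose from 64.1 to 124.9 CPM (0.96, SE 0.05). The ubiquitin ligase SMURF2 and the repressor SKI fell by 0.61 and 0.51 on the log2 scale. Of the ID genes, which are BMP targets, ID2 rose by 0.90 (SE 0.15) and ID3 fell by 0.60 (SE 0.08). FURIN, which cleaves activin precursors, fell from 210.5 to 107.9 CPM (-0.96, SE 0.07, adjusted p = 3.8e-07 in edgeR).

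The calls of 4 of the pathway genes were lost under some processing choices as well as without particular samples. ACVRL1 and SKIL were lost with library size alone, with no filter and in the 3 limma fits. ID1 was lost with library size alone, with a mean of at least 5 FPKM and in the 3 limma fits. Of these choices, SMAD9 was lost only with no filter. ACVRL1 (-0.44, adjusted p = 0.041 in edgeR) was lost without PBS replicate 1 (adjusted p = 0.093) or 3 (0.12) and without rhSema3C replicate 1 (0.052) or 3 (0.15). SMAD9 (0.53, adjusted p = 0.029 in edgeR) was lost without PBS replicate 2 (0.064) or 3 (0.10) and without rhSema3C replicate 3 (0.16). SKIL (-0.39, adjusted p = 0.036 in edgeR) was lost in each fit without 1 sample except that without rhSema3C replicate 2, with adjusted p-values of 0.059 to 0.12. ID1 (-0.28, adjusted p = 0.014 in edgeR) was lost without PBS replicate 2 (0.057) or 3 (0.059). Some pathway genes that did not pass in the main fit gained a call elsewhere. BMPR2 and SMAD7 passed in limma on log2(TPM + 1), and NOG in the 3 limma fits. SMURF1 passed with median-of-ratios scaling and with DESeq2.

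**Figure D3:**
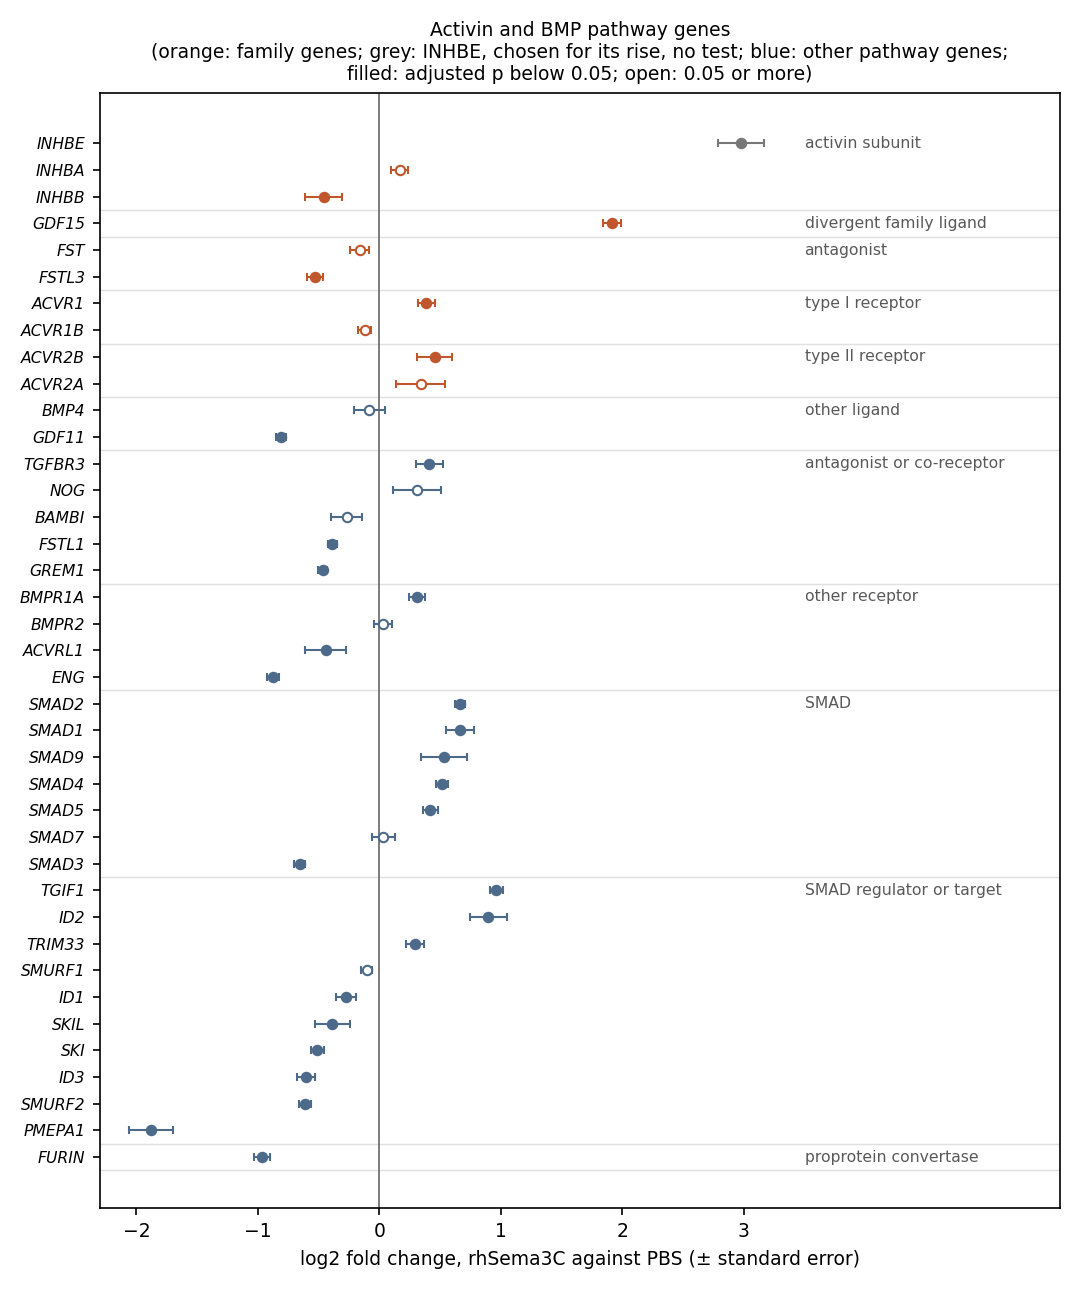
Log2 fold change of rhSema3C against PBS (points, with standard errors) for the 10 genes and for 29 other tested genes of the activin and BMP pathway, grouped by role. INHBE at 2.98 and GDF15 at 1.91 stand to the right of every other gene, and PMEPA1 at -1.88 to the left. INHBE, ACVR2A and ACVR2B reached the filter's minimum in the rhSema3C group only, and PMEPA1 in the PBS group only.

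INHBE and GDF15 are both known targets of the integrated stress response, in which ATF4 and DDIT3 (CHOP) drive transcription when translation is restrained. The test (adjusted p below 0.05) called 10 of 12 genes of this response higher and 1 lower, and their median log2 fold change was 1.63. With p below 0.05 before adjustment in edgeR, 8 were more than 2-fold higher. Over all genes tested, 31.7% were called higher and 30.6% lower, and 3.42% were higher by this 2-fold rule. ATF4 itself rose from 331.5 to 647.0 CPM (0.96, SE 0.04) and DDIT3 from 23.8 to 81.8 CPM (1.78, SE 0.07, adjusted p = 8.1e-09 in edgeR). Asparagine synthetase ASNS rose by 3.34, the serine synthesis enzymes PSAT1 and PHGDH by 2.32 and 0.92, the pseudokinase TRIB3 by 2.24, the glutathione-degrading CHAC1 by 1.67 and the transcription factor ATF3 by 1.00 on the same scale. NUPR1, a small stress-induced nuclear protein, rose by 2.19, and SESN2, an inhibitor of mTOR signalling, by 1.58. CEBPB, at 0.20 (SE 0.09), had overlapping groups and did not pass (adjusted p = 0.081 in edgeR), though it passed in some alternatives. PPP1R15A, which ends the response, was at -0.18 (adjusted p = 0.0022 in edgeR), but its call was lost in 5 alternatives, and with values rescaled to TPM it was at 0.04. That such genes were higher in these samples was known when the list was written, so the list does not bear independently on INHBE or GDF15.

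The genes closest in pattern were found by the root mean square difference of log2(CPM + 1), centred for each gene, over the 6 samples, among 13048 tested genes with a symbol. For GDF15 the closest were KCP (0.04), a secreted regulator of BMP signals, ITPR1 (0.07), a calcium channel of the endoplasmic reticulum, ACSS2 (0.08), which makes acetyl-CoA from acetate, ABCA1 (0.08), which exports cholesterol, and MTHFD2 (0.08), a mitochondrial folate enzyme. KCP had 5.48 ± 0.468 CPM with PBS and 22.6 ± 0.683 with rhSema3C (SD, n = 3 per group). The same 5 genes came out in the same order for GDF15 when the added constant was 0.01.

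For INHBE, KCP was also the closest (0.04), followed by TSC22D3, a glucocorticoid-induced regulator, the mitochondrial ribosomal RNA MT-RNR1, ITPR1 and ACSS2. This list turned on the added constant, since INHBE was under 1 CPM with PBS and adding 1 shrank its difference from 2.97 to 1.94. With 0.01 added, a choice made after the data were seen, the closest to INHBE were the cytokine IL24 (0.10), the mitochondrial folate enzyme ALDH1L2 (0.17), the mTOR inhibitor DDIT4 (0.19), the receptor IL21R (0.23) and NDRG1 (0.26). The 6 points of each gene share their libraries, and most of the likeness is the difference between the groups.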

How the data were processed

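RNA from 3 rhSema3C-treated and 3 PBS-treated LX-2 samples was sequenced on an Illumina NovaSeq instrument. The table that the authors deposited holds raw counts for each gene. Beside them stand FPKM values, which the authors had already scaled to gene length and library size. Cufflinks and cuffmerge are named in the study's methods for the comparison of groups. The aligner, genome build and strand setting are not given in the sources used here. Coordinates lie on GRCh38, and 3 of the 10 member spans equal those of GENCODE release 29. Samples were grouped and numbered by their titles.

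Genes were kept for testing when their FPKM averaged 0.5 or more across all samples (14178 of 33900). Counts were then fitted in edgeR (quasi-likelihood, TMM factors), and p-values were adjusted by Benjamini-Hochberg over all genes kept. CPM are on the TMM scale. Standard errors are the log2 fold change over the square root of F. Genes named are the members, list genes that passed with a fold change above 1.5 and a few examples for each role, genes whose span overlaps a member, and for INHBE and GDF15 the 5 closest in pattern. The members and lists were chosen with earlier results of these data known. Alternatives were DESeq2, limma on log2(FPKM + 1), on log2(FPKM + 0.1) and on log2(TPM + 1) with TPM computed from the FPKM, other scalings and filters, a replicate block, and the omission of each sample. The main edgeR fit, the replicate block, DESeq2 and limma on log2(FPKM + 1) were tried on simulated data. The other alternatives were not. In the simulated data far fewer genes were changed than were called here. Overlaps used the annotation of GENCODE. Protein sequences were not used here. Software was edgeR 4.0.16, DESeq2 1.42.0 and limma 3.58.1 in R 4.3.3, with matplotlib 3.10.9 for plots.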

Additional observations from a re-analysis of the deposited data

How the results depend on the processing

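FSTL3, GDF15 and ACVR1 kept their direction and their call in the alternatives, 15 in number. With library size alone, INHBA passed at 0.28, INHBB did not at -0.35, and 1 member was lower. In that setting 5654 genes were higher and 3415 lower in all. With a mean of at least 5 FPKM, only 6971 genes were tested in all, of which 2630 were higher and 2602 lower. INHBA passed at 0.27 in that setting, 1 member was lower, and of the pathway genes left 2 were higher and 9 lower. INHBB, INHBE, ACVR2A and ACVR2B gave no value there. With limma on log2(FPKM + 1), INHBA passed at 0.23, INHBE was 1.22 and ACVR2B did not pass at 0.19, and with 0.1 added the values were 0.27, 2.62 and 0.46. With limma on log2(TPM + 1), INHBA passed at 0.38, INHBB did not at -0.20, INHBE was 2.17, FST and ACVR1B turned to 0.0637 and 0.10, 1 member was lower, and 6934 genes were higher and 2428 lower in all. In these 5 settings 0 stress response genes were lower at an adjusted p below 0.05, by edgeR or limma. Before adjustment, 1 was lower by limma on either FPKM scale and 0 in the other 3 settings, and DESeq2 called 1 lower. With median-of-ratios scaling and with DESeq2, ACVR1B passed at -0.13. In CPM in place of FPKM, the ratio of INHBA to the antagonists was 0.702 with PBS and 1.035 with rhSema3C, and that of the summed subunits 0.810 and 1.24. Over the 6 fits that each omit a sample, INHBA lay between 0.10 and 0.23, INHBB between -0.59 and -0.36 and ACVR2B between 0.35 and 0.57 on the log2 scale. In these fits 1 to 2 members were lower, while 4065 to 4301 genes were higher and 3991 to 4203 lower in all. Fewer genes or samples enter where a filter or a sample was changed. The cause of the other shifts was not tested.

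Samples with the same replicate number did not deviate together, with correlations of -0.09, -0.08 and -0.04 across genes. No sample correlated best with its own number. With 3 samples per group this cannot show whether samples of the same number were handled together, and the labels do not say. With the replicate block, 4221 genes were higher and 4120 lower, against 4490 and 4339 without it, and no call of a member changed. Of the pathway genes, ACVRL1 and SMAD9 lost theirs under the block (adjusted p = 0.060 and 0.051 in edgeR). INHBE had 50 to 53 counts in PBS samples, which limits how exactly its fold change is known.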
